A study of Mus musculus with 4 samples.

Results

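The annexins are proteins that bind phospholipid membranes when calcium is present, and 8 genes of the family are described here: Anxa1, Anxa2, Anxa3, Anxa4, Anxa5, Anxa7, Anxa8 and Anxa11. They are 8 of the 17117 genes in a count table of single lung cells, and they were chosen with earlier results from these libraries known, so the levels and ratios below describe these 8 genes and test nothing. The study looked at how the lung regrows after pneumonectomy (PNX, in which some of it is cut away) when alveolar type II (AT2) cells, which make surfactant and renew the alveolar lining, lack Cdc42, a small GTPase that organises actin. GFP+ cells were sorted and sequenced by the 10x Genomics 3′ single-cell method in 4 libraries, 1 for each group. Null PNX and null sham mice carried Sftpc-CreER, Cdc42flox/- and Rosa26-mTmG, and control PNX and control sham mice carried Sftpc-CreER, Cdc42flox/+ and Rosa26-mTmG. The PNX groups are day 21 after surgery, the sham groups had a sham treatment, and the labels give postnatal day 80 for all 4. All mice had 4 tamoxifen doses, so Cre was active in the controls too, where it could remove only 1 Cdc42 allele. Cre was driven from Sftpc, an AT2 gene, and the sources used here do not state the number of mice behind a library.

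Alveolar cells were chosen by a rule on the counts of unique molecular identifiers (UMIs, each a captured RNA molecule): Sftpc at 2% or more of the cell's UMIs or at least 1 Cldn4 UMI, and no UMI of Ptprc, Pecam1 or Col1a2, genes of blood, endothelial and mesenchymal cells. This kept 8129 of 10077 cells, which were 1858 in null PNX, 2630 in null sham, 1972 in control PNX and 1669 in control sham. Their median depth was 10595 UMIs per cell in null PNX, against 5129 in null sham, 4826 in control PNX and 4763 in control sham. The 10 AT2 markers examined, among them Sftpc of the rule, summed to 110667, 129103, 176057 and 185500 CPM in the same order of libraries. CPM are the UMIs of a gene per 1e6 UMIs of the same group of cells. All 10 were above 10 CPM in each library, but they were so in lymphocytes of null PNX too, where they summed to 9574 CPM. The limit of 10 CPM thus does not mark AT2 cells. The 7 lymphocyte markers in the table summed to 22.3, 18.7, 8.32 and 14.7 CPM in that order of libraries. Myeloid markers summed to 176 CPM in null PNX, 199 in null sham, 63.8 in control PNX and 152 in control sham, and the 5 endothelial markers to at most 4.67 CPM, with Pecam1 at 0 by the rule. Transitional markers summed to 11857 CPM in null PNX, 2586 in null sham, 587 in control PNX and 451 in control sham, airway markers to 5547, 4886, 1236 and 5220 CPM and AT1 markers to 1730, 1001, 2124 and 1698 CPM. Cldn4, a tight-junction gene that marks cells passing from AT2 to AT1, was seen in 998 null PNX, 69 null sham, 3 control PNX and 0 control sham cells. Cdc42 tags stood at 405, 265, 226 and 184 CPM, but 3′ tags do not show whether the floxed part was deleted. With 1 library a group no difference below has a replicate check or a test. All intervals are 95% intervals that cover counting error only, and they are exact except those for differences of log2 ratios.

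Annexins act where membranes meet. Anxa1 quiets inflammation, inhibits phospholipase A2 and is a ligand of formyl peptide receptors, while Anxa2 forms a complex with S100a10 that binds plasminogen and its activator at the cell surface. Anxa7 and Anxa2 have been linked to the fusion of surfactant-storing lamellar bodies with the cell surface in rat AT2 cells, Anxa5 binds exposed phosphatidylserine, Anxa11 binds the calcium sensor Pdcd6 and the S100 protein S100a6, and several members gather at wounds in the plasma membrane to help seal them. UMI counts of different genes depend on how well each transcript is captured, so levels are compared here for 1 gene between groups and not between genes.

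All 8 genes are protein-coding, and the start regions of 7 are held in a RefSeq table of GRCm38.p6, a patch release of the assembly also called mm10, as 250 bases before and 50 after the start. Those of Anxa1, Anxa2 and Anxa8, with the largest ratios of null PNX over null sham, and of Anxa11, with a small ratio, are shown for comparison. They lie at chr19:20390622-20390921 on the minus strand for Anxa1, chr9:69453433-69453732 on the plus strand for Anxa2, chr14:34085729-34086028 on the plus strand for Anxa8 and chr14:25841905-25842204 on the plus strand for Anxa11. Capitals mark matches, on either strand, to the AP-1 motif TGANTCA, the TEAD motif GGAATG and the TATA box TATAAA.
Anxa1: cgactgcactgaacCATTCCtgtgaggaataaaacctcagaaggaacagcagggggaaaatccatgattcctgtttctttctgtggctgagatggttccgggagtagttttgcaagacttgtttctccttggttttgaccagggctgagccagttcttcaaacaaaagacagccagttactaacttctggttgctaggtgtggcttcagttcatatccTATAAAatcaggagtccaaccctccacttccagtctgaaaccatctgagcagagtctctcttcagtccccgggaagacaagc
Anxa2: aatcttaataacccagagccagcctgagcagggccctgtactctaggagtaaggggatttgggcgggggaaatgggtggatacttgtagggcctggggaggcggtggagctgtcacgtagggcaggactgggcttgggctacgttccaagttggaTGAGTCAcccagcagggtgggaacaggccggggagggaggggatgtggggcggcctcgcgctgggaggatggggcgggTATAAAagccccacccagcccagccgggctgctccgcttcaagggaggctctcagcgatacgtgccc
Anxa8: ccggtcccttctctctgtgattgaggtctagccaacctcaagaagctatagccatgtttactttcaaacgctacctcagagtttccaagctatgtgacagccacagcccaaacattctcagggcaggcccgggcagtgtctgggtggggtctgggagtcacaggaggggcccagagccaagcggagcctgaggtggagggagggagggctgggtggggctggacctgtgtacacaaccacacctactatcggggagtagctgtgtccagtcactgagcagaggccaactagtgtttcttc
Anxa11: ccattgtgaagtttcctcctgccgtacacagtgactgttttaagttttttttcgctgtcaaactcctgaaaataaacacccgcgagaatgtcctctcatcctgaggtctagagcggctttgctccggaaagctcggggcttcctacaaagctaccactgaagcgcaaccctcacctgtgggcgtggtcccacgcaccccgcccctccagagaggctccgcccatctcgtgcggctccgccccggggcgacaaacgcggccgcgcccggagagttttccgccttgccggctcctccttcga
The Anxa1 window holds a TEAD match on the reverse strand at -236 and a TATA box at -32, counted from the start. The Anxa2 window holds an AP-1 match at -95, a TATA box at -17 and 3 GC boxes (GGGCGG), none of them overlapping. The Anxa11 window holds 3 GC boxes, on the reverse strand, and none of the capitalised motifs. Anxa8 holds none of these 4 motifs nor a CRE (TGACGTCA), so the 3 genes with the largest ratios share no motif among the 5 searched. Among 32851 windows of the same length, 7.81% held the AP-1 motif, 14.7% the TEAD motif, 13.6% the TATA box and 35.7% the GC box. These matches describe the letters and show no binding.

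Anxa1 stood at 1237 CPM (95% interval 1222–1252) in null PNX, 195 (188–203) in null sham, 52.4 (48.0–57.1) in control PNX and 39.0 (34.9–43.6) in control sham. Both null libraries were above both control libraries, and the null PNX library stood far above all others. Anxa2 stood at 1800 CPM (1782–1818) in null PNX, 624 (611–637) in null sham, 413 (400–426) in control PNX and 303 (291–315) in control sham. Its order of libraries was the same. Anxa3 had 733 CPM in null PNX, 456 in null sham, 325 in control PNX and 245 in control sham. Anxa5 had 358, 253, 132 and 107 CPM in that order of libraries, and Anxa7, also called synexin, had 132, 106, 54.7 and 40.6 CPM. For Anxa5, Anxa7 and Anxa11, and in fold for Anxa3 too, the gap between null and control was wider than the gap between PNX and sham within either genotype. Anxa4, a membrane-coating annexin of epithelial cells, had 239.9 CPM in null PNX, 175 in null sham, 154 in control PNX and 134 in control sham, the narrowest range of the 8 in fold. Anxa11 had 107, 78.4, 49.2 and 42.5 CPM.

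Anxa8, an annexin described in lung and skin epithelium, differed from the others in being close to absent outside null PNX. It had 25.7 CPM (23.6–27.9) from 537 UMIs in null PNX, 0.964 CPM from 14 UMIs in null sham, 0.100 from 1 UMI in control PNX and 0.246 from 2 UMIs in control sham. All 8 genes thus had their highest level in null PNX and their second highest in null sham. Of the 8, 7 had their lowest level in control sham and Anxa8 in control PNX, where its 1 UMI against 2 in control sham is no difference at this depth. With the libraries in order of level, the intervals of neighbours overlapped for control PNX and control sham in Anxa8 and Anxa11 and for null sham and control sham in Anxa8, and for no other pair.

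**Figure D1:**
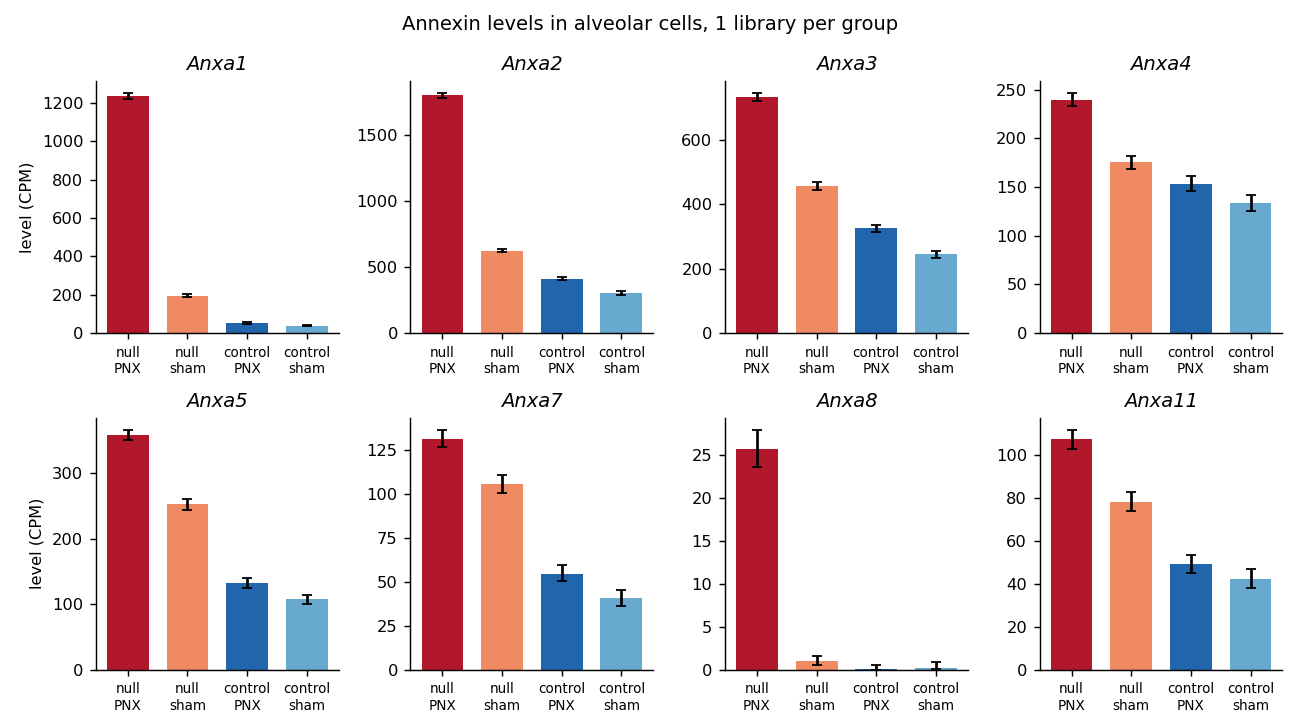
Level of each annexin in CPM over the summed alveolar cells of null PNX, null sham, control PNX and control sham, 1 library each, with exact 95% Poisson intervals that cover counting error only. The axes start at 0 and differ between genes. Anxa1 reaches 1237 CPM in null PNX and Anxa8 is near 0 in the other 3 libraries.

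Pneumonectomy in the null mice was the first comparison. A gene is called higher or lower here when its CPM ratio, divided by the median ratio of all tabulated genes, is at least 1.5 or at most the inverse, with an interval that excludes 1. Tabulated genes were the 7060 whose level averaged 10 CPM or more across the 4 libraries, which includes 7 members and leaves out Anxa8, at a mean below that. In null PNX over null sham the median gene had a ratio of 1.17, so a ratio near that value is no shift relative to other genes. Anxa1 rose 6.33-fold (6.09–6.58) and Anxa2 rose 2.88-fold (2.82–2.95), and they were the 2 of 7 members called higher, where 16.2% of all genes were. No member was called lower, against 20.1% of all genes, and 36.3% of all genes were called in either direction. Anxa3 had a ratio of 1.61, Anxa5 of 1.42, Anxa11 and Anxa4 of 1.37 and Anxa7 of 1.245, all short of the call, and the median of the 7 was 1.42. The untabulated Anxa8 had a ratio of 26.6 (15.7–49.1), which rests on the cells admitted: it was 46.2 with the Sftpc limit at 4% of UMIs, 14.6 with it at 0.5%, and 5.45 when every cell had to hold Sftpc at 2% or more. The ratio of Anxa1 was 6.51 without cells holding a UMI of Tyrobp, Cd3e or Cd79a, and 6.55 with all cells thinned to 2000 UMIs. With Sftpc at 2% or more asked of every cell it was 4.87, and that of Anxa2 was 2.44, in each case the lowest of the settings. Cells with Sftpc under 2% numbered 424 in null PNX and 19 in null sham.

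Pneumonectomy in the control mice gave smaller ratios. In control PNX over control sham, 0 of 7 members were called, where 3.46% of all genes were called higher, 3.03% lower and 6.49% in either direction. Anxa2 had the largest ratio at 1.36 (1.30–1.43), Anxa7 had 1.35, Anxa1 1.34 (1.17–1.55), Anxa3 1.33, Anxa5 1.23, Anxa11 1.16 and Anxa4 1.15. All 7 were above the median gene, at 1.10, and the median of the members was 1.33. The null response minus the control response was 2.24 on the log2 scale for Anxa1 (2.03–2.45) and 1.08 for Anxa2 (1.00–1.16). It was 6.03 (2.48–9.58) for Anxa8, where the interval is not reliable at 14, 1 and 2 UMIs in 3 of the libraries. It was between 0.20 and 0.27 for Anxa3, Anxa4, Anxa5 and Anxa11, and -0.11 (-0.33 to 0.10) for Anxa7. The response was thus larger in the null libraries for Anxa1 and Anxa2, and for Anxa8 by its point value alone. The other 5 had a small gap or none. These intervals are normal approximations from the raw counts and carry no spread between mice.

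The null genotype without surgery was set against its control next. In null sham over control sham, 6 of 7 members were called higher and 0 lower, where 7.99% of all genes were called higher, 6.69% lower and 14.7% in either direction. Anxa1 rose 5.01-fold (4.46–5.64), Anxa7 rose 2.60-fold (2.31–2.94), Anxa5 2.35-fold, Anxa2 2.06-fold, Anxa3 1.86-fold and Anxa11 1.85-fold. Anxa4 had a ratio of 1.31 and was not called, and the members' median ratio was 2.06 beside 1.13 for all genes. Anxa3, Anxa5, Anxa7 and Anxa11 thus passed the call between the sham libraries and did not pass it between null PNX and null sham. With a fold of 2 in place of 1.5, 3 were called. Anxa8 had a ratio of 3.92, with an interval of 0.901–35.6 that includes 1.

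After surgery, too, most members were higher in the null library. In null PNX over control PNX, 6 of 7 were called higher, where 20.8% of all genes were called higher, 21.5% lower and 42.4% in either direction. Anxa1 rose 23.6-fold (21.6–25.8) and Anxa2 4.36-fold (4.22–4.50). Anxa5 rose 2.70-fold, Anxa7 2.40-fold, Anxa3 2.25-fold and Anxa11 2.18-fold, while Anxa4 had 1.56 and was not called. The members' median was 2.40 beside 1.18 for all genes. Anxa8 had a ratio of 256 with a counting interval of 45.8–10137.3, since control PNX had 1 UMI, and 49.2 when Sftpc at 2% or more was asked of every cell and 54.0 with the Sftpc limit at 0.5%. When Sftpc at 2% or more was asked of every cell, the ratio of Anxa1 was 17.2. The 4 ratios share libraries, each library standing in 2 of them, so their likeness is no separate evidence.

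**Figure D2:**
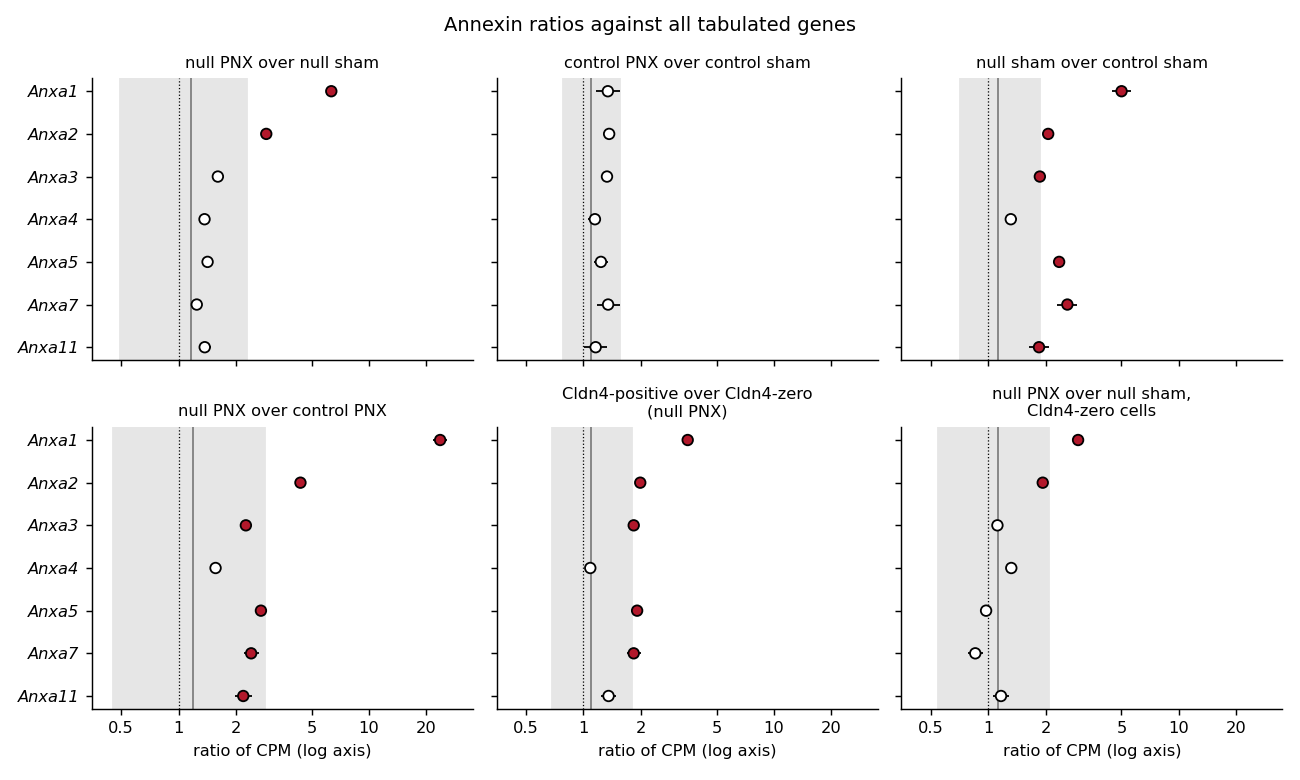
CPM ratio of 7 annexins in 6 comparisons on a log axis, with exact 95% binomial intervals. Filled points passed the call and open points did not, the grey line is the median ratio of all tabulated genes, the grey band spans their 5th to 95th percentile and the dotted line is a ratio of 1. Anxa1 lies beyond the band in every panel except control PNX over control sham, and Anxa4 is open in all 6. Anxa8 is not drawn.

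The count of annexin molecules per cell was read after each cell was thinned to 2000 UMIs, which left out 0 null PNX, 139 null sham, 101 control PNX and 113 control sham cells. An Anxa1 UMI was then seen in 68.6% of null PNX cells, 23.4% of null sham cells, 8.71% of control PNX cells and 6.49% of control sham cells. Cells chosen by lymphocyte markers in the same libraries had 25.3%, 8.75%, 9.68% and 5.32%, at median depths of 3365, 2739, 3025 and 2683 UMIs before thinning. Lymphocytes make some Anxa1 themselves, and those of control PNX also held 28453 CPM of myeloid markers, against 513 in null PNX, 2189 in null sham and 2283 in control sham, so their Anxa1 share is no measure of free RNA. Whether the control shares of Anxa1 exceed free RNA was not tested. Anxa2 was seen in 87.7%, 64.3%, 50.6% and 42.6% of alveolar cells, against 43.7%, 21.9%, 19.4% and 16.0% of lymphocytes. Anxa3 was seen in 65.4%, 56.0%, 45.1% and 34.8% of alveolar cells, against 8.05%, 9.38%, 3.23% and 4.26% of lymphocytes, and so was seen more often in alveolar cells in every library. Anxa8 was seen in 4.20%, 0.161%, 0.0534% and 0.0643% of alveolar cells and in 0 of 87 lymphocytes of null PNX (upper bound of the exact 95% interval 4.15%).

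Summed over the 8 genes, the median thinned cell held 6 annexin UMIs in null PNX, 3 in null sham, 2 in control PNX and 2 in control sham. The highest cell held 51, 28, 14 and 11. At least 4 of the 8 members were seen together in 48.7% of null PNX cells, 20.3% of null sham cells, 7.16% of control PNX cells and 3.08% of control sham cells. Cells with no annexin UMI at all were 1.24% of null PNX cells, against 5.58%, 13.5% and 19.8% in null sham, control PNX and control sham.

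**Figure D3:**
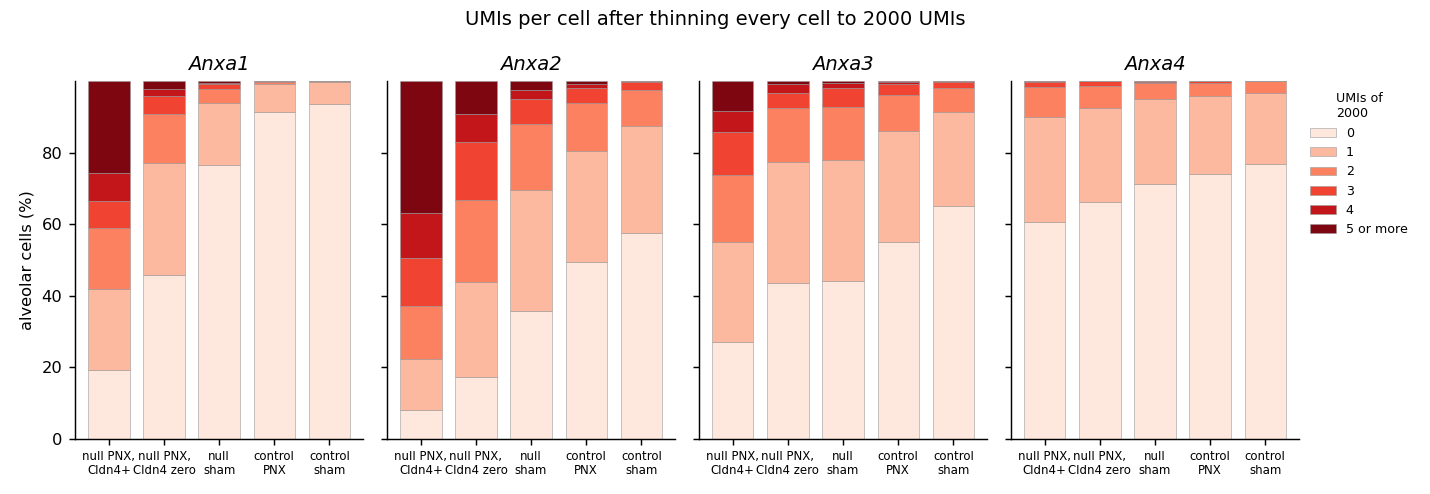
Share of alveolar cells in percent with 0, 1, 2, 3, 4 or 5 and more UMIs of Anxa1, Anxa2, Anxa3 and Anxa4 after thinning to 2000 UMIs, in Cldn4-positive and Cldn4-zero null PNX cells and the other 3 libraries. An Anxa1 UMI was present in 80.9% of Cldn4-positive and 54.3% of Cldn4-zero null PNX cells. An Anxa4 UMI was present in 39.5% and 33.7% of them and in 28.7%, 26.0% and 23.3% of null sham, control PNX and control sham cells.

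Within null PNX the cells were split by Cldn4, with 998 Cldn4-positive and 860 Cldn4-zero cells from the same library. The Cldn4-positive cells had 16741 CPM of transitional markers against 4810 in Cldn4-zero cells, a list that includes Cldn4 itself, and a median depth of 11812.5 UMIs against 9628.5. AT1 markers summed to 1650 CPM in Cldn4-positive against 1847 in Cldn4-zero cells. AT2 markers, which include Sftpc of the rule, summed to 82501 against 151312 CPM. Tabulated here were the 7339 genes whose levels in both classes averaged 10 CPM or more. They include all 8 members, but Anxa8 reached that mean only through the Cldn4-positive class, where it is high, so it had to differ to be counted. Of the 8, 6 were called higher and 0 lower, where 7.1% of all genes were called higher, 6.89% lower and 14% in either direction. The 6 were Anxa8, whose call carries no weight for that reason, and Anxa1, Anxa2, Anxa3, Anxa5 and Anxa7. Anxa1 had 1750 CPM in Cldn4-positive cells against 497 in Cldn4-zero cells, a ratio of 3.52 (3.41–3.64). Anxa2 had 2259 against 1137 CPM, a ratio of 1.99, and Anxa8 had 41.6 against 2.69 CPM, a ratio of 15.5 (10.2–24.7). Anxa5 rose 1.91-fold and Anxa3 and Anxa7 rose 1.84-fold each in Cldn4-positive cells. Anxa4, at 248 against 228 CPM, and Anxa11, at 120 against 88.9 CPM, were not called. The members' median ratio, with Anxa8 included, was 1.87 beside 1.09 for all genes. Cells of 1 library are not replicates, so these ratios compare 2 classes of cells in this library.

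The Cldn4-positive class holds 424 cells with Sftpc under 2% of UMIs, which entered by Cldn4 alone, and no such cell can be Cldn4-zero. With Sftpc at 2% or more asked of every cell, an alternative chosen after seeing the data, 2 of 8 members were called, with ratios of 2.69 for Anxa1 and 1.63 for Anxa2. Anxa5 with 1.55, Anxa3 with 1.48 and Anxa7 with 1.45 were then short of the call, and Anxa8, with 2.74, was below the CPM minimum. In the shallow, the middle and the deep cells of the library taken alone, in classes of equal size, 6 members were called each time. The 424 cells had 2475 CPM of Anxa1 and 102 CPM of Anxa8, against 1337 and 7.37 CPM in the 574 Cldn4-positive cells with Sftpc at 2% or more. Among the 424 were 11 cells with 1% or more of their UMIs from Scgb1a1, an airway gene, and without them the Anxa1 level was 2583 CPM and that of Anxa8 104 CPM. Summed airway markers were 7930 CPM in Cldn4-positive cells against 2108 in Cldn4-zero cells, and leaving out all Scgb1a1-rich cells gave an Anxa1 ratio of 3.56.

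The levels also followed the number of Cldn4 UMIs in a cell. Over cells with 0, 1, 2 to 3, 4 to 7 and 8 or more Cldn4 UMIs, which were 860, 346, 222, 146 and 284 cells, Anxa1 stood at 497, 748, 1093, 1527 and 3255 CPM. Anxa2 stood at 1137, 1372, 1740, 2376 and 3412 CPM and Anxa8 at 2.69, 8.90, 13.9, 36.8 and 94.3 CPM. Each of these 3 genes, and Anxa3, Anxa5 and Anxa7 with them, was higher in every class than in the class before. The classes held 0, 68, 66, 89 and 201 cells with Sftpc under 2%, which entered by Cldn4 alone. Their median depths were 9628.5, 10270, 12812.5, 10221 and 13388 UMIs. Cells with Sftpc at 2% or more numbered 860, 278, 156, 57 and 83 in these classes, at median depths of 9628.5, 11551, 14376.5, 15275 and 15647 UMIs. Their annexin levels are drawn apart in the plot of levels by number of Cldn4 UMIs. There Anxa8 was much lower in the cells that keep Sftpc. The parts of low Sftpc and of depth in the steps over all cells were not tested. Anxa4 stayed between 228 and 261 CPM, with overlapping intervals in neighbouring classes. At the rule's limit of 1 UMI, cells with 1 Cldn4 UMI had 748 CPM of Anxa1 against 497 with none. At the Sftpc limit, Cldn4-zero null PNX cells with 2 to 2.5% Sftpc had 988 CPM of Anxa1 (18 cells), and those with 1.5 to 2%, which were left out, had 737 CPM (17 cells).

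**Figure D4:**
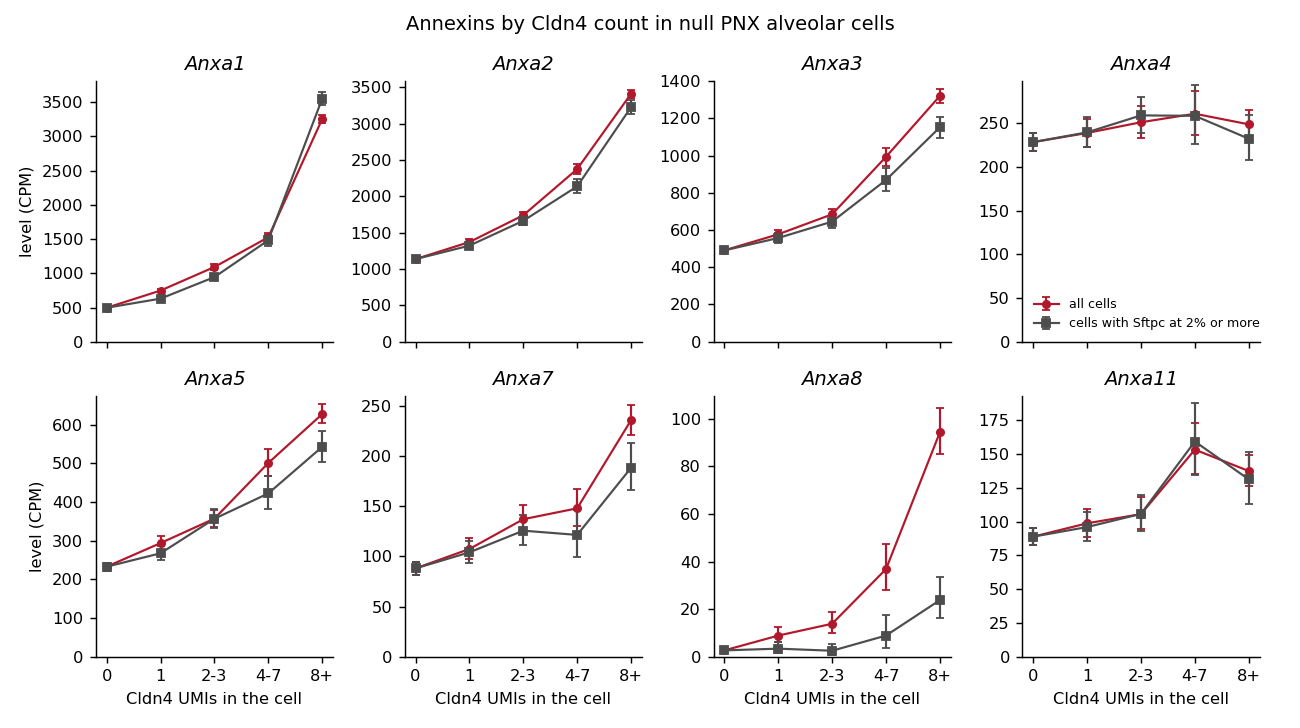
Level of each annexin in CPM, with exact 95% intervals for counting error, over null PNX cells grouped by their number of Cldn4 UMIs. Red circles are all alveolar cells and grey squares are those with Sftpc at 2% or more. Anxa1 reaches 3255 CPM in all cells with 8 or more Cldn4 UMIs, Anxa4 is flat, and Anxa8 is much lower in the cells that keep Sftpc.

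As a share of molecules, Cldn4-positive cells were 53.7% of null PNX alveolar cells and held 59.1% of their UMIs. They held 83.6% of the Anxa1 UMIs, 74.1% of those of Anxa2, 73.4% for Anxa5, 72.6% for Anxa3 and for Anxa7, 66.1% for Anxa11 and 61.0% for Anxa4. Of Anxa8 they held 95.7%, and cells with Sftpc under 2%, which were 22.8% of the cells, held 84.9%. The levels of Anxa8 in null PNX are therefore mainly those of a minority of cells low in Sftpc.

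Null PNX was also compared with null sham in Cldn4-zero cells alone. Here 2 of 7 members were called higher and 0 lower, where 13% of 7140 genes were called higher, 16.3% lower and 29.3% in either direction. Anxa1 had 497 CPM in null PNX against 168 in null sham, a ratio of 2.96 (2.81–3.11), and Anxa2 had 1137 against 589 CPM, a ratio of 1.93 (1.87–1.99). Anxa3 had a ratio of 1.12, Anxa5 of 0.973 (0.920–1.03) and Anxa7 of 0.854 (0.781–0.933), against a median gene of 1.12. So Anxa1 and Anxa2 were higher after surgery also in cells without a Cldn4 UMI, with smaller ratios than over all alveolar cells. Cells without a Cldn4 UMI are not free of the transitional state. Transitional markers summed to 4810 CPM in Cldn4-zero null PNX cells, against 2586 CPM in all null sham alveolar cells. The part of this difference in the ratios was not tested. The 69 Cldn4-positive null sham cells had 879 CPM of Anxa1, 1488 of Anxa2, 865 of Anxa3 and 583 of Anxa5, each above the Cldn4-zero cells of that library at 168, 589, 440 and 239 CPM.

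The genes that varied most like each member were searched over the 1858 thinned null PNX cells, by Spearman's rho against 2447 genes seen in at least 10% of cells. For Anxa1 they were Krt18 and Krt8, each at 0.53, and Krt19 at 0.48, and for Anxa2 they were Krt8 at 0.49 with Krt19 and Krt18 at 0.48. These encode keratins, filament proteins of simple epithelia. Anxa3 was most like Krt7 at 0.37 and S100a6 at 0.36, and Anxa5 most like S100a6 at 0.33. The values for Anxa7 reached 0.19 and those for Anxa4 and Anxa11 at most 0.11, which in counts this sparse is no finding, and Anxa8 was seen in too few cells to be searched. Between members, Anxa1 and Anxa2 had the highest rho at 0.44, and Anxa1 against Sftpc had -0.48. The cells were admitted by Sftpc or by Cldn4, so every cell below the Sftpc limit held a Cldn4 UMI before thinning. Cells low in Sftpc without a Cldn4 UMI were left out. The part of this rule in the rho values, with Sftpc and with the keratin genes alike, was not tested. The cells share 1 library, depth was made equal, and no p is given.

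Since Krt8 was among the most alike, the cells were set side by side at equal Krt8 counts, as a description. In cells with 2 to 3 Krt8 UMIs of 2000, Anxa1 had 620 CPM in null PNX, 186 in null sham, 116 in control PNX and 123 in control sham. In cells with no Krt8 UMI it had 304, 85.4, 40.4 and 30.4 CPM. At 8 or more, a class with fewer than 20 cells in either control library, it had 2780 CPM in null PNX against 1104 in null sham. Anxa1 was higher in null PNX than in null sham in each of the 5 Krt8 classes. The 8-or-more class held 359 null PNX cells, 44 of them Cldn4-zero, and 67 null sham cells, 43 of them Cldn4-zero. In those Cldn4-zero cells Anxa1 had 1068 CPM (863–1307) in null PNX against 802 (624–1015) in null sham, with overlapping intervals. The part of Cldn4-positive cells in the gaps at equal Krt8 was not tested. Anxa5 was much closer between them, at 549 CPM in null PNX against 507 in null sham with 8 or more Krt8 UMIs and at 181 against 185 CPM with none.

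**Figure D5:**
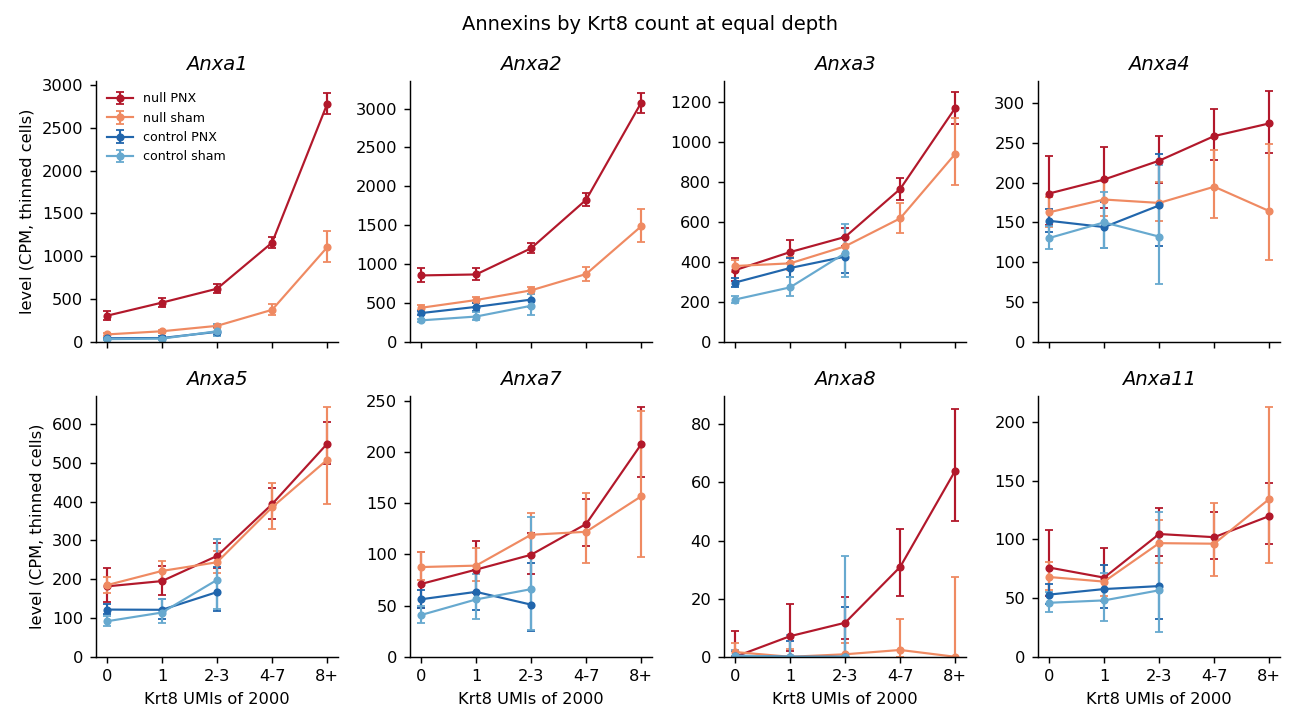
Level of each annexin in CPM, with exact 95% intervals for counting error, over alveolar cells thinned to 2000 UMIs and grouped by their Krt8 UMIs, for the 4 libraries. Classes with fewer than 20 cells are not drawn. The null PNX line lies above the null sham line for Anxa1 and Anxa2 in all 5 classes, while the lines of Anxa5 and Anxa11 nearly meet.

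Of 37 listed partners of the annexins, 34 were in the table and 24 were tabulated between libraries. In null PNX over null sham 11 were called higher and 2 lower, where 16.2% and 20.1% of all genes were. In control PNX over control sham 1 was called higher and 0 lower, beside 3.46% and 3.03% of all genes. In null sham over control sham 9 were higher and 0 lower, beside 7.99% and 6.69%, and in null PNX over control PNX 13 and 0, beside 20.8% and 21.5%. The partners' median ratios were 1.71, 1.18, 1.38 and 1.80 in these comparisons, beside 1.17, 1.10, 1.13 and 1.18 for all genes. S100a10, the partner of Anxa2, had 1055 CPM in null PNX, 612 in null sham, 396 in control PNX and 375 in control sham, and was called only in null PNX over control PNX (2.67-fold) among these 4. S100a11, which binds Anxa1, had 3087 CPM in null PNX against 875 in null sham and rose 3.53-fold. S100a6, which binds Anxa11, rose 10.5-fold in null sham over control sham, at 2253 against 214 CPM, and 1.85-fold in null PNX over null sham. Pdcd6 and Sri, the calcium sensors that bind Anxa11 and Anxa7, rose 1.89-fold and 1.79-fold in null PNX over null sham.

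Calpain and membrane-remodelling genes on the list were mixed. In null PNX over null sham the calpain subunits Capn2 and Capns1 rose 3.02-fold and 2.11-fold, the calpain inhibitor Cast rose 2.03-fold, and the membrane-remodelling genes Tsg101 and Chmp2b rose 1.85-fold and 1.89-fold. In that comparison Chmp4b, with a ratio of 1.58, Myof with 1.42, Capn1 with 1.2 and Pdcd6ip with 1.00 were not called. Ahnak, a scaffold of the Anxa2 complex, fell in null PNX over null sham, with a ratio of 0.726, but rose 1.84-fold in null sham over control sham and 2.05-fold in Cldn4-positive over Cldn4-zero cells. Within null PNX, 9 of 26 tabulated partners were called higher in Cldn4-positive over Cldn4-zero cells and 0 lower, beside 7.1% and 6.89% of all genes, among them S100a6 at 3.74-fold, S100a11 at 2.14-fold and S100a10 at 2.04-fold. In Cldn4-zero cells of null PNX over null sham, 6 of 25 were called higher and 4 lower, with S100a11 at 2.19-fold, beside 13% and 16.3% of all genes, so the lower share was near that of all genes. The formyl peptide receptor genes Fpr1 and Fpr2, whose products bind Anxa1, were at most 1.24 CPM in alveolar cells of any library.

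Of the other annexins, Anxa6 had 143 CPM in null PNX, 163 in null sham, 121 in control PNX and 112 in control sham, and was called in none of the 6 comparisons. It had the reverse order of the members between null PNX and null sham, with a ratio of 0.876 (0.830–0.925). Anxa9 had at most 1.79 CPM and Anxa13 at most 1 UMI in a library.

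Several members overlap other genes, and the sources used here do not say whether the counting used strand. Anxa8, on chromosome 14 at 34085981 to 34100571, lies within the coding gene A630023A22Rik on the opposite strand, and Anxa1, on chromosome 19 at 20373428 to 20390944, lies within the long noncoding gene 1500015L24Rik on the opposite strand. Anxa2, Anxa4 and Anxa11 also overlap noncoding genes on the opposite strand, and Anxa3 overlaps the unclassified Gm42603 on its own strand. Reads of each opposite-strand pair could not be told apart if strand was ignored. For Anxa3 and Gm42603 strand does not separate the reads in either case.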

How the data were processed

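UMIs per gene were measured in single GFP+ lung cells of 4 libraries. The deposited table holds raw UMI counts, not normalized, for 17117 genes, each seen in at least 3 cells, and 10077 cells. Per the submitters' processing notes, Cell Ranger 2.1.0, Seurat 2.3.4 and the build mm10 were used. Barcode endings gave the library, per the labels. Library totals were 24897537 UMIs in null PNX, 17828596 in null sham, 11233796 in control PNX and 9868802 in control sham. The members, the gene lists and the rules were chosen with earlier results of these data known.

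Counts were summed over the alveolar cells, or over another class of cells where named, and scaled to CPM by the UMIs of the same cells. Levels have exact Poisson intervals, ratios and shares exact binomial ones, at 95%, for counting error only. Differences of log2 ratios have normal-approximation intervals, which are not reliable for Anxa8. For the median ratios over genes 0.5 was added to each count, and nothing was added for the ratios of single genes. No test was run, as each group is 1 library. All 8 members are named whatever their values. For the most alike genes, the 3 highest rho were taken, among genes seen in at least 10% of cells. Lymphocytes and myeloid cells, used for comparison, had at least 2 and 4 UMIs of their listed markers. Cells were thinned with seed 1, and doublets were not removed. The 108 cells whose barcode occurs in more than 1 library were kept, 22 alveolar ones in null PNX, 23 in null sham, 19 in control PNX and 17 in control sham. The calling step was tested on simulated counts. Results were recomputed under 15 other settings and 6 more chosen after seeing the data. Gene positions and promoters come from GENCODE and RefSeq annotations of GRCm38. Python 3.11.15, numpy 2.4.6, pandas 2.3.3, scipy 1.17.1 and matplotlib 3.10.9 were used.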

Additional observations from a re-analysis of the deposited data

How the results depend on the processing

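Over 15 other settings and 6 more chosen after seeing the data, no member's called ratio changed direction. Of 822 ratios of a member recomputed under another setting, relative to the median gene, 685 stayed within their 95% counting interval, 137 moved out of it and 0 called ones reversed. The number of members called ranged from 2 to 3 in null PNX over null sham, 0 to 0 in control PNX over control sham, 3 to 6 in null sham over control sham, 4 to 7 in null PNX over control PNX, 2 to 6 in Cldn4-positive over Cldn4-zero cells and 1 to 3 in null PNX over null sham Cldn4-zero cells. With a fold of 2, 3 members were called in null sham over control sham against 6, 2 in Cldn4-positive over Cldn4-zero cells against 6, and 1 in the Cldn4-zero cells against 2, by the construction of a stricter rule. With Sftpc at 2% or more asked of every cell, 2 were called in Cldn4-positive over Cldn4-zero cells, and the ratio of Anxa8 was 5.45 against 26.6 in null PNX over null sham and 49.2 against 256 in null PNX over control PNX. With the Sftpc limit at 4% of UMIs the Anxa8 ratio of null PNX over null sham was 46.2. When Sftpc at 2% or more was asked of every cell, the ratio of Anxa1 was 4.87 against 6.33 in null PNX over null sham. It was 17.2 against 23.6 in null PNX over control PNX. With no centring on the median gene, 3 members were called in null PNX against null sham and 7 in null PNX against control PNX. No paired analysis was possible because each group is 1 library and the labels give no replicate numbers, and for the same reason no replicate could be left out. Depth limits Anxa8, with 14, 1 and 2 UMIs in null sham, control PNX and control sham. In Cldn4-positive over Cldn4-zero cells the count of 6 includes Anxa8, which passed the CPM limit only through the class where it is high.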

Other observations

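Anxa8 was seen in 224 null PNX alveolar cells, of which 203 were Cldn4-positive and 168 had Sftpc under 2% of UMIs, and in 10 null sham, 1 control PNX and 2 control sham cells. Among the null PNX cells with Sftpc under 2% and Scgb1a1 under 1%, 162 held an Anxa8 UMI and 251 did not, at median depths of 11509 and 7789 UMIs. The Anxa8-positive cells had 5431 CPM of Krt8 against 4174 in the Anxa8-zero cells, 13653 against 9386 CPM of the stress-linked chaperone gene Clu, and 2663 against 1533 CPM of Sfn, an epithelial 14-3-3 gene. They had 3009 against 1915 CPM of Krt7, 3702 against 2502 CPM of Anxa2 and 1269 against 1246 CPM of Anxa3. The AT2 genes Sftpb and Lamp3 stood at 2916 and 101 CPM in Anxa8-positive cells, against 4329 and 201 CPM in Anxa8-zero cells. Of the AT1 genes, Ager stood at 544 CPM against 768 and Hopx at 94.1 against 61.6, and the basal-cell keratin gene Krt14 had 1 UMI against 0. Deeper cells are more likely to show an Anxa8 UMI, and the part of depth in these differences was not tested.

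Myeloid cells of the same libraries had 979 CPM of Anxa1 in null PNX, 651 in null sham, 498 in control PNX and 626 in control sham, and 372, 125, 39.0 and 43.2 CPM of Anxa3. Their transitional epithelial markers summed to 4113, 1121, 41.7 and 107 CPM, and the part of carried epithelial RNA in their annexin levels was not tested.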
